A study of Mus musculus with 16 samples.

Results

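The comparison described here is the step from transitional type 2 (T2) to follicular (FO) B-cells of the mouse spleen, with the genotypes pooled. Its members were chosen by their labels: the 4 FO libraries were set against the 4 T2 libraries, so that 8 of the 16 RNA-Seq libraries of the series entered the comparison. The FO group held 2 libraries from Mir146a−/− (KO) mice and 2 from wild-type (WT) mice, and the T2 group likewise held 2 KO and 2 WT libraries. All mice had a C57BL/6 background, and KO mice lacked the microRNA miR-146a in all cells, not in B-cells alone. Each library was made from cells sorted by flow cytometry from the pooled spleens of 3 to 5 mice, whose age is not given in the sources used here. T2 cells were taken as CD93+ CD23+ cells with high IgM and low CD21. FO cells were taken as CD93− CD23+ cells with low IgM and intermediate CD21. Cd93, Cr2 (CD21), Fcer2a (CD23), Ighm and Ptprc (B220) are therefore checks of the sort and no finding. The remaining 8 libraries, of transitional type 1 (T1) and marginal zone (MZ) B-cells, are used below only to place the genes that changed.

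B-cells leave the bone marrow as immature cells and pass through T1 and T2 stages in the spleen, where cells with self-reactive receptors are lost or silenced. T2 cells then become either FO B-cells, which recirculate and answer protein antigens with the help of T cells, or MZ B-cells, which stay at the marginal sinus and need Notch2 signaling. CD93, recognized by the antibody AA4.1, is lost when transitional cells mature. Kcna3 encodes Kv1.3, a voltage-gated potassium channel that sets the membrane potential of lymphocytes and so supports calcium entry.

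FO libraries were sequenced more deeply than T2 libraries, with 22348074 to 26386684 reads assigned to genes per FO library and 9003343 to 14056567 per T2 library, so that depth and stage cannot be told apart. The labels were checked first. Cd93 had 1.17 and 2.48 RPKM in KO FO libraries and 2.42 and 2.55 RPKM in WT FO libraries, against 13.3 and 6.66 RPKM in KO T2 libraries and 15.4 and 10.9 RPKM in WT T2 libraries (RPKM, reads scaled by exon length and by the mapped reads of the library). Every FO library was thus below every T2 library for this sort marker, and the log2 fold changes of Cr2 (0.35), Fcer2a (0.07), Ptprc (−0.14) and Ighm (−0.30) were small. Cd79a, a signaling chain of the B-cell receptor, was high in both stages, at 1196 ± 35.4 RPKM in FO and 1118 ± 96.4 RPKM in T2 (mean ± SD, n = 4 each). The entry Mir146 had 0 recovered reads in the 4 KO libraries of the comparison, 1 in each WT FO library and 0 in both WT T2 libraries, which is too few to check the genotype. The values of a library also moved with the GC content of the transcripts. Spearman's rho across 9679 protein-coding genes between GC content and the library's centred values was 0.54 and 0.28 in KO FO, 0.60 and 0.31 in WT FO, −0.60 and 0.09 in KO T2, and −0.59 and −0.08 in WT T2 libraries (replicates 1 and 2 of each). The replicate 1 libraries of both genotypes were thus the most extreme in either stage, and the counts of gene lists that moved by over 1.5 times after adjustment for GC content are given beside the lists.

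A gene was said to pass at a Benjamini-Hochberg adjusted p under 0.05 in limma on log2(RPKM + 0.5) with genotype as a covariate, and to be called when its log2 fold change was also beyond 1 in size. A positive log2 fold change is higher in FO. It is given with its standard error (SE), and it understates the change of genes near the pseudocount. Of 11365 genes tested, 179 were called (1.58%), with 68 higher in FO (0.598%) and 111 lower (0.977%). Without the fold criterion 778 genes passed as higher (6.85%) and 845 as lower (7.44%). Every count of list members that passed is to be read beside these shares. The median log2 fold change of all tested genes was 0.002. Every FO library was above every T2 library for 1571 genes (13.8%) and below every T2 library for 1577 genes (13.9%). Among the called genes, 61 of the rises and 105 of the falls had no overlap between the stages. The number of calls depended on single libraries. It was 31 without KO FO replicate 1, 33 without WT FO replicate 1, 59 without WT FO replicate 2, 52 without WT T2 replicate 1 and 96 without KO T2 replicate 1, and 167 to 239 without any one of the others. The genes that passed without the fold criterion fell to 17 higher and 50 lower without KO FO replicate 1, 22 and 59 without WT FO replicate 1, 25 and 98 without WT FO replicate 2, 56 and 105 without WT T2 replicate 1, and 80 and 162 without KO T2 replicate 1, and the counts for gene lists below follow them. Most genes that lost their call kept their size: of 727 pairs of a gene and a left-out library in which a call ended, 605 still had a log2 fold change beyond 1, and the median adjusted p of the lost calls was 0.0523 to 0.082. The calls held in every one of the 8 fits for 26 genes, 5 higher and 21 lower in FO.

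**Figure D1:**
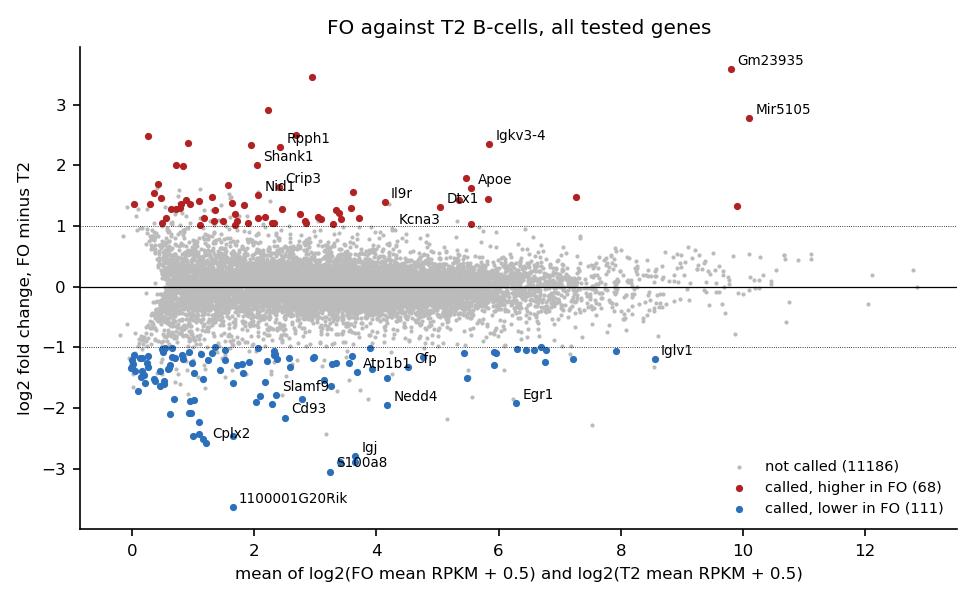
Each point is 1 of the 11365 tested genes, with the mean log2 level of both stages on the x axis and the log2 fold change (FO minus T2) on the y axis. Red points are the 68 genes called higher in FO, blue points the 111 called lower, and the dotted lines mark a log2 fold change of 1 in either direction. The most highly expressed genes called higher are noncoding RNAs, and 1100001G20Rik has the lowest log2 fold change.

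Most genes that mark immature B-cells were lower in FO cells. Of 14 tested members of a list of immature and transitional B-cell genes, 8 passed as lower and 0 as higher, and the median log2 fold change of the list was −0.81. After adjustment for GC content 8 passed as lower and 1 as higher. Values of 4 libraries are given from here on in the order KO replicate 1, KO replicate 2, WT replicate 1 and WT replicate 2. Myb, a transcription factor of hematopoietic progenitors, had 1.87, 4.03, 3.90 and 3.38 RPKM in FO libraries and 8.91, 6.59, 10.5 and 9.53 RPKM in T2 libraries. The groups did not overlap, and the log2 fold change was −1.33 (SE 0.20, limma adjusted p = 0.0154), a call that ended without WT FO replicate 1, WT FO replicate 2 or WT T2 replicate 1, where it was −1.36 to −1.29. Vpreb3, which binds newly made receptor chains in precursor cells, had 81.6, 79.1, 66.9 and 75.2 RPKM in FO and 143, 135, 126 and 131 RPKM in T2 libraries. Its log2 fold change was −0.82 (SE 0.060, limma adjusted p = 0.00446), under the fold criterion but with stages well apart. Cd24a (−0.81), a surface sialoglycoprotein that is high on immature B-cells, Tifa (−0.80), an adaptor of TRAF6, Cecr2 (−0.97), a chromatin remodeling factor, Akap12 (−0.91), an anchor of protein kinase A, and Cnn3 (−0.30), an actin-binding calponin, also passed as lower. Cd93 itself is the eighth and was used by the sort. The number of members that passed as lower was 4 without KO FO replicate 1 and 3 without WT FO replicate 1, WT FO replicate 2 or WT T2 replicate 1.

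Named rises and falls were taken only from called genes without overlap between the stages, so that this lack of overlap is no finding for them. Outside the myeloid and neutrophil markers described below, the largest named falls were those of Igj, Cplx2, Nedd4, Hivep3 and Slpi. Cplx2, which encodes complexin 2, a clamp of vesicle fusion (chr13:54371349-54383917, mm10), had 0.372, 0.450, 0.408 and 0.450 RPKM in FO libraries and 7.37, 2.79, 6.78 and 4.23 RPKM in T2 libraries. The FO values lay close together while those of T2 spread more widely, and the log2 fold change was −2.57 (SE 0.27, limma adjusted p = 0.0099). Nedd4, a ubiquitin ligase (chr9:72662346-72749852), had 6.78, 10.9, 7.12 and 9.64 RPKM in FO and 41.4, 24.5, 45.6 and 30.0 RPKM in T2 libraries. Its log2 fold change was −1.96 (SE 0.23, limma adjusted p = 0.0099), and both T2 replicate 1 libraries were the highest. Hivep3, a large zinc finger protein that binds NF-κB-like motifs, averaged 1.53 ± 0.154 RPKM in FO and 7.62 ± 3.2 RPKM in T2 libraries, with a log2 fold change of −1.90 (SE 0.29). Igj, the joining chain of polymeric IgM and IgA, had 3.72, 8.63, 1.96 and 3.60 RPKM in FO and 21.2, 28.1, 38.5 and 36.3 RPKM in T2 libraries. No FO library reached the lowest T2 value, and the log2 fold change was −2.79 (SE 0.37). Of 10 tested plasma cell genes, to which Igj belongs, Edem1, a factor of glycoprotein disposal in the endoplasmic reticulum, also passed as lower (−0.37), whereas Sdc1 (CD138) passed as higher at 0.94, and the median of the list was −0.06. Neither Sdc1 (0.77) nor Edem1 (−0.30) passed after adjustment for GC content, which left 0 higher and 1 lower. No member of this list passed as higher when any one library other than KO T2 replicate 2 was left out, and the number that passed as lower was 0 without KO FO replicate 1 and 1 without any one of KO FO replicate 2, WT FO replicate 1, WT FO replicate 2, KO T2 replicate 1 and WT T2 replicate 1.

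Among the 21 falls that were called in every fit is Slamf9, a receptor of the SLAM family, which was chosen after its values were seen. Slamf9 had 2.15, 2.24, 2.34 and 2.14 RPKM in FO and 11.2, 5.85, 10.5 and 8.83 RPKM in T2 libraries. Its FO values lay close together, the stages did not overlap, and the log2 fold change was −1.78 (SE 0.18, limma adjusted p = 0.00972). The list of WAP domain inhibitors, secreted proteins that block proteases, had 3 tested members, of which 1100001G20Rik and Slpi passed as lower (median −1.89). 1100001G20Rik had 0.206, 1.02, 0 and 0.295 RPKM in FO and 15.0, 6.07, 15.6 and 5.75 RPKM in T2 libraries, the lowest log2 fold change of all tested genes at −3.64 (SE 0.43). Of the 15 tested exocytosis genes, Cplx2, the endosomal syntaxin Stx7 (−0.39) and the vesicle protein Vamp3 (−0.42) passed as lower and the synaptotagmin Syt11 (0.54) as higher, with a median of −0.06. Vamp3 did not pass after adjustment for GC content (−0.30).

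The calls of Cplx2, Nedd4 and Vcam1 were made in all 8 fits that each leave out 1 library, and those of the other 13 named falls ended in at least 1. Without KO FO replicate 1 or without WT FO replicate 1, 11 of the 16 named falls lost their call in each fit, against 10 without WT T2 replicate 1, 7 without WT FO replicate 2, 3 without KO T2 replicate 1, 2 without WT T2 replicate 2 and 1 without KO T2 replicate 2. In those fits their log2 fold changes were −3.55 to −1.73. Hivep3 lost its call without KO FO replicate 1, WT FO replicate 1, WT FO replicate 2 or WT T2 replicate 1 (−1.98 to −1.75), Slpi without KO FO replicate 1, WT FO replicate 2 or WT T2 replicate 1 (−1.95 to −1.92), and Igj without KO FO replicate 1 (−2.72).

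The 12 largest rises under the naming rule are given here after the marker Kcna3. Kcna3 (chr3:107036169-107038070) had 24.5, 24.9, 28.1 and 26.5 RPKM in FO libraries and 12.1, 14.8, 10.8 and 15.3 RPKM in T2 libraries. The stages did not overlap, and the log2 fold change was 0.96 (SE 0.12, limma adjusted p = 0.0106), just under the fold criterion. It was 0.68 after adjustment for GC content. Shank1, a scaffold of the postsynaptic density (chr7:44310253-44360572), had 8.63, 7.0, 7.45 and 6.72 RPKM in FO and 1.12, 2.69, 0.616 and 2.1 RPKM in T2 libraries. Its log2 fold change was the largest of the named rises at 2.01 (SE 0.30, limma adjusted p = 0.0154). Crip3, a cysteine-rich LIM domain protein (chr17:46428926-46431776), had 9.24, 7.91, 7.65 and 9.87 RPKM in FO and 2.46, 3.32, 1.24 and 3.19 RPKM in T2 libraries, with a log2 fold change of 1.64 (SE 0.24, limma adjusted p = 0.0149). For both genes the WT T2 replicate 1 library was the lowest.

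Apoe, which encodes a lipid-transport protein (chr7:19696109-19699188), had 71.4, 73.0, 89.6 and 80.1 RPKM in FO and 16.2, 41.1, 16.7 and 35.6 RPKM in T2 libraries. Both T2 replicate 1 libraries were lower than both T2 replicate 2 libraries, and the log2 fold change was 1.62 (SE 0.31, limma adjusted p = 0.024). Nid1, a basement membrane glycoprotein (chr13:13437551-13512269), had 6.22, 5.73, 6.89 and 6.85 RPKM in FO and 1.07, 2.79, 1.62 and 2.65 RPKM in T2 libraries, with a log2 fold change of 1.51 (SE 0.23). Il9r, the receptor of interleukin 9, and Rhbdf1, an inactive rhomboid protein that steers the protease ADAM17, are neighbors on chromosome 11, with 9305 bp between them. Il9r had 22.7, 21.1, 23.7 and 41.2 RPKM in FO and 5.97, 13.2, 6.38 and 16.9 RPKM in T2 libraries, and Rhbdf1 had 4.37, 3.33, 4.24 and 5.58 RPKM in FO and 0.659, 2.04, 1.04 and 2.15 RPKM in T2 libraries. In both genes WT FO replicate 2 was the highest library, and the log2 fold changes were 1.40 (SE 0.34) and 1.37 (SE 0.27). Tbx21 (T-bet), a transcription factor of type 1 immunity, averaged 2.62 ± 1.30 RPKM in FO and 0.685 ± 0.336 RPKM in T2 libraries, with KO FO replicate 1 the highest at 4.53 RPKM. The other named rises were Lars2, the mitochondrial leucyl-tRNA synthetase (log2 fold change 1.44), Sh2b2, an adaptor of receptor tyrosine kinases (1.41), Prss12, the protease neurotrypsin (1.30), Mapk12, the gamma isoform of the kinase p38 (1.29), and Dtx1, described below with the Notch genes. Lars2 averaged 57.17, 33.96, 54.95 and 93.13 RPKM in T1, T2, MZ and FO. The noncoding gene Gm15564, chosen after its values were seen and described below, took a like course at 49.27, 23.25, 47.04 and 81.79 RPKM. Whether these genes share reads was not tested, so the level of Lars2 is uncertain.

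The calls of all 12 named rises ended without KO FO replicate 1, without WT FO replicate 1 and without WT FO replicate 2. Leaving out WT T2 replicate 1 ended 8 of them (Apoe, Lars2, Sh2b2, Il9r, Rhbdf1, Tbx21, Dtx1 and Prss12), KO T2 replicate 1 ended 6 (Apoe, Il9r, Rhbdf1, Tbx21, Prss12 and Mapk12), and KO FO replicate 2 ended those of Il9r and Prss12. Over these fits their log2 fold changes were 1.1 to 2.01, with each still above 1. The median GC content was 56.8% in the called protein-coding rises, 48.3% in the called falls and 49.4% in all tested protein-coding genes, and across these genes Spearman's rho between GC content and log2 fold change was 0.57. After adjustment of each library for GC content rho was −0.002, and 169 genes were called, of which 137 were also among the 179. Without the fold criterion 577 genes then passed as higher and 736 as lower. The calls of the rest of the 179 ended, some of them in genes described here. The adjustment moved Dtx1 to a log2 fold change of 0.98, Traf1, a signaling adaptor of tumor necrosis factor receptors, to 0.97 and Nfatc2, a transcription factor of calcium signaling, to 0.98, so that their calls ended. The calls of S100a9 and of Id2, an inhibitor of E proteins, ended there too, at −2.79 and −1.04.

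**Figure D2:**
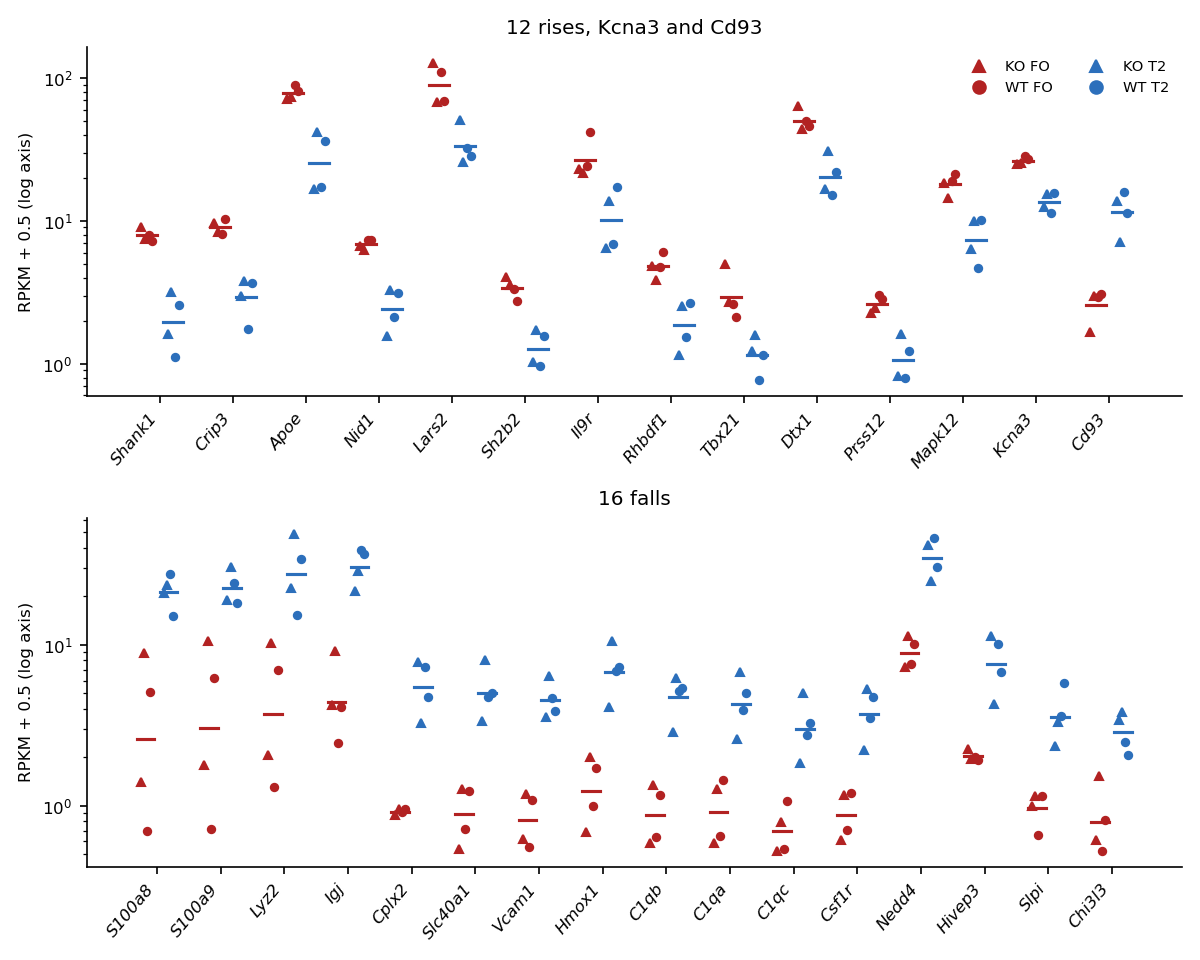
RPKM + 0.5 on a log axis in each of the 8 libraries for the 12 named rises with the markers Kcna3 and Cd93 (upper panel) and for the 16 named falls (lower panel). Red symbols are FO and blue symbols T2 libraries, triangles are KO and circles WT, and each bar is the mean of the 4 log2 values of a stage. The named rises and falls were chosen for having no overlap between the stages, and Cd93 was used by the sort. The stages of Kcna3 do not overlap either, and the T2 replicates of one genotype often lie apart.

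Transcripts of macrophages and neutrophils made up 11 of the 16 named falls. S100a8, S100a9, Lyz2, Slc40a1, Vcam1, Hmox1, C1qa, C1qb, C1qc, Csf1r and Chi3l3 are best known from these cells. Lyz2, a lysozyme of myeloid cells, had 1.56, 9.82, 0.808 and 6.5 RPKM in FO and 22.0, 48.7, 14.9 and 33.9 RPKM in T2 libraries. S100a8, a subunit of the neutrophil protein calprotectin, had 0.913, 8.44, 0.193 and 4.57 RPKM in FO and 20.6, 23.2, 27.2 and 14.6 RPKM in T2 libraries. Both FO replicate 1 libraries were far lower than both FO replicate 2 libraries, and no FO library reached a T2 library. The log2 fold changes were −2.89 (SE 0.66, limma adjusted p = 0.0343) for Lyz2 and −3.05 (SE 0.73, limma adjusted p = 0.0364) for S100a8. Vcam1, an adhesion molecule of splenic red pulp macrophages, had 0.119, 0.689, 0.0558 and 0.577 RPKM in FO and 3.04, 5.95, 4.18 and 3.39 RPKM in T2 libraries (log2 fold change −2.47, SE 0.31). C1qb, a subunit of complement C1q, had 0.0823, 0.853, 0.139 and 0.666 RPKM in FO and 2.37, 5.69, 4.70 and 4.93 RPKM in T2 libraries (log2 fold change −2.43, SE 0.35). In both genes the FO replicate 1 libraries were again the lowest. Slc40a1, the iron exporter ferroportin, Hmox1, the heme-degrading enzyme, and Csf1r, the receptor of macrophage colony-stimulating factor, had log2 fold changes of −2.52, −2.46 and −2.09.

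Of the 17 tested members of a list of myeloid markers, 14 passed as lower in FO and 0 as higher, 10 of them called, and the median log2 fold change was −1.49. The number that passed as lower was 1 without WT FO replicate 1, 3 without KO FO replicate 1 or WT T2 replicate 1, 6 without WT FO replicate 2 and 10 to 13 without any one of the others, while the median stayed between −1.68 and −1.36. In limma-voom on recovered reads, which adds no pseudocount of this size, the median was −3.2. Cybb, which B-cells also express, did not pass (log2 fold change 0.21). The summed level of the other 21 listed myeloid genes was 24.2, 38.3, 20.9 and 31.1 RPKM in FO libraries and 68.9, 131, 80.6 and 103 RPKM in T2 libraries. That of 14 neutrophil markers was 2.85, 26.2, 0.834 and 13.1 RPKM in FO and 56.1, 70.5, 62.0 and 37.6 RPKM in T2 libraries, and 2 of 6 tested members passed, both as lower, against 1 after adjustment for GC content. Of 22 myeloid and 14 neutrophil markers, 1 myeloid marker was at 0 in all FO libraries, and 1 of each list was at 0 in all T2 libraries. Of the other lists, erythroid markers summed to 1.48 to 2.92 RPKM in FO and 5.53 to 7.99 RPKM in T2 libraries, and Hbb-b1, a beta globin, was called lower (log2 fold change −1.56, SE 0.29). Platelet and megakaryocyte markers summed to 8.84 to 10.7 RPKM in FO and 11.6 to 15.0 RPKM in T2 libraries, and stromal and endothelial markers to 72.2 to 77.9 RPKM in FO and 79.6 to 82.2 RPKM in T2 libraries. These sums were thus lower in every FO library as well, although 0 tested platelet or stromal markers passed. Most of the stromal and endothelial sum was Pecam1, the only tested member, at 74.0 RPKM in FO and 80.1 RPKM in T2. Itgb3, a platelet marker, averaged 7.77 RPKM in FO and 10.85 RPKM in T2. After adjustment for GC content 1 platelet marker passed as lower. Dendritic cell markers summed to 31.6 to 37.2 RPKM in FO and 34.8 to 46.2 RPKM in T2 libraries, which overlapped, and Itgax (CD11c) passed as lower (−0.88). With GC adjustment 2 dendritic cell markers passed as lower. T and NK cell markers did not move the same way, with summed levels of 38.9, 45.6, 35.6 and 44.5 RPKM in FO and 26.8, 46.8, 21.5 and 42.9 RPKM in T2 libraries. Of their 14 tested members only Lck, a Src-family kinase that B-cells can also express, passed (0.98). In a bulk library, fewer cells of a type and less RNA per cell cannot be told apart, and the part of other cells in the falls of these genes was not tested.

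**Figure D3:**
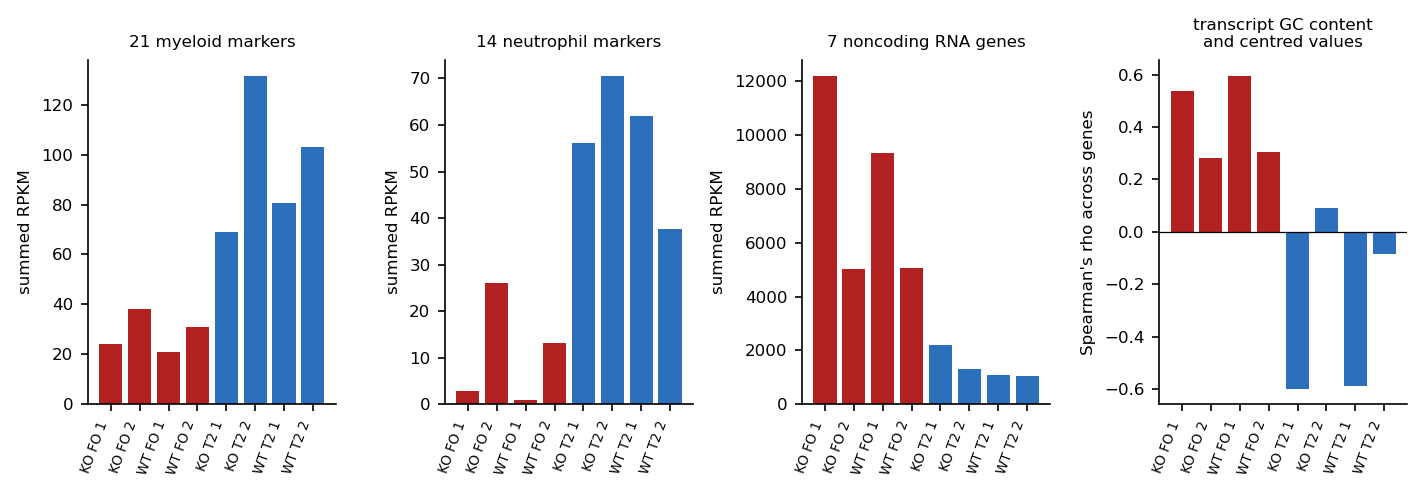
The first 3 panels give the summed RPKM of 21 myeloid markers (without Cybb), 14 neutrophil markers and 7 noncoding RNA genes in each library, FO in red and T2 in blue. The last panel gives Spearman's rho across 9679 protein-coding genes between GC content and the library's centred values. Myeloid and neutrophil sums are lower in every FO library than in every T2 library, and the noncoding sum is higher in every FO library.

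Genes of follicular maturation and homing had log2 fold changes of −0.45 to 0.96. Of 20 tested members, 3 passed as higher and 1 as lower, beside 6.85% and 7.44% of all tested genes, with a median of 0.18. The number that passed as higher was 6 after adjustment for GC content and 6 in limma-voom on recovered reads. Cxcr5, the receptor that leads B-cells into follicles, had 210, 170, 172 and 182 RPKM in FO and 144, 153, 130 and 130 RPKM in T2 libraries. The stages were apart by a small margin (log2 fold change 0.40, SE 0.077, limma adjusted p = 0.0254). S1pr4, a receptor of sphingosine-1-phosphate, averaged 57.5 ± 5.11 RPKM in FO and 40.5 ± 5.95 RPKM in T2 libraries (log2 fold change 0.51), and Kcna3, given above, is the third. Cd44, an adhesion receptor of activated cells, was lower (−0.45). Ccr7, Klf2 and S1pr1, which guide lymphocytes through lymphoid organs, did not pass, with log2 fold changes of 0.04, −0.03 and −0.05. The number that passed as higher was 1 without any one of KO FO replicate 1, WT FO replicate 1, WT FO replicate 2, KO T2 replicate 1 and WT T2 replicate 1, and 7 without KO T2 replicate 2.

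Among 24 tested ion channel and pump genes, those of calcium entry moved in both directions. Orai1, the pore of the store-operated calcium channel, had 9.40, 7.70, 9.27 and 7.54 RPKM in FO and 4.55, 6.46, 4.32 and 5.10 RPKM in T2 libraries (log2 fold change 0.69, SE 0.13). Stim1, its sensor of endoplasmic calcium, was higher by 0.21, whereas Orai2, a relative of Orai1, was lower at −0.21 (SE 0.051). Atp1b1, the beta subunit of the sodium pump (chr1:164437109-164458355), had 5.51, 8.61, 7.10 and 8.29 RPKM in FO and 21.9, 16.7, 23.2 and 19.4 RPKM in T2 libraries (log2 fold change −1.41, SE 0.15, limma adjusted p = 0.0099). Its stages were far apart, and its call was made in all 8 fits that leave out 1 library. In all, 4 members passed as higher and 2 as lower, beside 6.85% and 7.44% of all tested genes, with a median of 0.03. With GC adjustment 2 passed as higher and 4 as lower, and Stim1 (0.07) no longer passed. The count of higher members was 1 without any one of KO FO replicate 1, WT FO replicate 1, WT FO replicate 2, KO T2 replicate 1 and WT T2 replicate 1.

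Notch genes are of interest because Notch2 signaling directs T2 cells to the MZ fate. Notch2 is a receptor that is cut on ligand contact, its freed intracellular part binds RBPJ on DNA, and fringe enzymes (Lfng, Rfng) modify the receptor's sugars and so its response to ligands. Of 22 tested members of the pathway, 6 passed as higher in FO and 1 as lower, with a median of 0.19. Of all tested genes 6.85% passed as higher and 7.44% as lower. Among receptors and fringes, Notch2 had 83.0, 81.1, 88.6 and 76.6 RPKM in FO and 59.1, 72.1, 58.1 and 66.9 RPKM in T2 libraries, a small difference with no overlap (log2 fold change 0.36, SE 0.087, limma adjusted p = 0.0365). Lfng had 32.0, 28.0, 28.6 and 27.7 RPKM in FO and 12.8, 22.5, 12.7 and 16.9 RPKM in T2 libraries (log2 fold change 0.86, SE 0.17, limma adjusted p = 0.0254). Rfng was higher by 0.31. The T2 replicate 1 libraries were the lowest for Lfng.

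Among targets and regulators of the pathway, Dtx1, a Deltex ubiquitin ligase and a classical Notch2 target in B-cells (chr5:120680202-120711927), had 62.9, 43.7, 49.5 and 45.5 RPKM in FO and 16.2, 30.4, 14.6 and 21.6 RPKM in T2 libraries. Its log2 fold change was 1.30 (SE 0.21, limma adjusted p = 0.0188), and all FO libraries were above all T2 libraries. Nrarp, a feedback inhibitor induced by Notch (0.72), and Dtx4, another Deltex protein (0.54), were also higher, whereas Hes1, a repressor and Notch target in many tissues, had 15.7, 15.6, 17.1 and 12.5 RPKM in FO and 22.4, 22.9, 33.9 and 23.1 RPKM in T2 libraries (log2 fold change −0.72, SE 0.15, limma adjusted p = 0.0284). These targets thus did not move in 1 direction. No member passed in either direction without KO FO replicate 1, WT FO replicate 1, WT FO replicate 2 or WT T2 replicate 1. There were 1 higher and 0 lower without KO T2 replicate 1, and 3 higher and 1 lower without KO FO replicate 2. With GC adjustment 5 passed as higher and 1 as lower, with a median of 0.06, and Rfng (0.05) and Dtx4 (0.46) no longer passed.

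The promoters of the 2 highest Notch genes by log2 fold change, Dtx1 and Lfng, are shown because TGGGAA is the core of the RBPJ binding site. The sequences are from RefSeq (GRCm38.p6), 250 bases before to 50 bases after the start annotated there, in the direction of the gene. The Dtx1 window lies wholly inside the GENCODE span given above for that gene. It therefore holds no bases before the GENCODE start of Dtx1, and that stretch was not searched. Capitals mark TGGGAA or its reverse complement TTCCCA, searched on both strands. Lfng (chr5:140607091-140607390, + strand) held 2 matches, at 135 and 108 bases before the start, and Dtx1 (chr5:120711620-120711919, − strand) held 0. The motif was in 25.6% of 32851 promoter windows of this length, and in 6 of the 17 windows found for the 24 Notch genes. A match is a description of the letters and not of binding.
Dtx1: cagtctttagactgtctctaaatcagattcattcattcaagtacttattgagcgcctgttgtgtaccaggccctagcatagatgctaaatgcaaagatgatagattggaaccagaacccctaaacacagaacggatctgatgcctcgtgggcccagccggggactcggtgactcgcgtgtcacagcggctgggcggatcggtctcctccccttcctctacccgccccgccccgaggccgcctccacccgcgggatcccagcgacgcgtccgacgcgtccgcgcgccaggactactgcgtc
Lfng: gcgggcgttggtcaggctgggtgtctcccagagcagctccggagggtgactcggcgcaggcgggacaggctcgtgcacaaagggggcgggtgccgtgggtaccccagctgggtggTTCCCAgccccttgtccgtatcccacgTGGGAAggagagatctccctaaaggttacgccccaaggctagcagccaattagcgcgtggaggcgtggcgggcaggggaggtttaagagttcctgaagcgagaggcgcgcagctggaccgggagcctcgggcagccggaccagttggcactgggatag

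MHC class II molecules present antigen peptides to helper T cells. Of 13 tested genes of this route, 4 passed as higher and 1 as lower, with a median of 0.39 and all FO libraries above all T2 libraries for 9, a separation found in 13.8% of all tested genes. Ciita, the transactivator of class II genes, had 176, 152, 167 and 166 RPKM in FO and 97.9, 111, 90.2 and 122 RPKM in T2 libraries (log2 fold change 0.66, SE 0.10, limma adjusted p = 0.0176). H2-Eb2, a class II beta chain, had 106, 92.2, 103 and 106 RPKM in FO and 56.8, 68.1, 56.9 and 67.2 RPKM in T2 libraries (log2 fold change 0.71, SE 0.087, limma adjusted p = 0.0109). H2-Oa, a chain of the peptide-editing inhibitor DO (0.69), and H2-Eb1, the beta chain of the I-E molecule (0.53), also passed, and both genes and H2-Eb2 belong to a family of similar sequences. Ifi30, a lysosomal thiol reductase, was lower (−0.72, SE 0.12). The T2 replicate 1 libraries were again the lowest for Ciita and H2-Eb2. With GC adjustment 3 passed as higher and H2-Eb1 did not (0.45). The number that passed as higher was 1 without KO FO replicate 1, WT FO replicate 1 or WT FO replicate 2, 2 without KO T2 replicate 1 or WT T2 replicate 1, and 9 without KO T2 replicate 2.

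Glycolytic enzymes and ribosomal proteins differed by small amounts. All 17 tested glycolysis genes had a log2 fold change above 0 (median 0.26) and 7 passed as higher, among them Eno1 with 33.8, 31.4, 32.6 and 32.1 RPKM in FO and 20.4, 27.5, 19.7 and 22.5 RPKM in T2 libraries (log2 fold change 0.53, SE 0.10). Of 48 ribosomal protein genes 47 were above 0 (median 0.26) and 9 passed, among them Rpsa with 759, 692, 744 and 688 RPKM in FO and 392, 630, 409 and 500 RPKM in T2 libraries (log2 fold change 0.60, SE 0.15). Ribosomal protein genes have many processed copies, which can share reads. In neither list did a member pass without KO FO replicate 1, WT FO replicate 1, WT FO replicate 2, KO T2 replicate 1 or WT T2 replicate 1. Without KO FO replicate 2 the counts were 3 glycolysis and 0 ribosomal protein genes, and without KO T2 replicate 2 they were 6 and 31. With GC adjustment 5 members of each passed as higher. Among 34 oxidative phosphorylation genes 1 passed as higher and 5 as lower, and the median was 0.01.

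Of 27 tested interferon response genes, 5 passed as lower and 1 as higher, with a median of −0.23. After adjustment for GC content 8 passed as lower and 1 as higher. Mx2, an antiviral dynamin-like GTPase, had 3.55, 5.79, 3.95 and 3.93 RPKM in FO and 7.78, 7.83, 8.55 and 9.93 RPKM in T2 libraries (log2 fold change −0.92, SE 0.15, limma adjusted p = 0.0187). Mx1, its relative, was lower to the same degree (−0.92), and the RNA sensor Ddx58 (−0.48), Oas2 (−0.46) and Xaf1 (−0.36) were also lower, whereas the signal transducer Stat2 was higher by 0.30. None passed as lower without KO FO replicate 1, WT FO replicate 1, WT FO replicate 2 or WT T2 replicate 1, while 1 did without KO T2 replicate 1 and 8 did without KO T2 replicate 2. Immediate early genes, which react within minutes to handling and stimulation, had log2 fold changes below 0 for all 21 tested members (median −0.61), but the stages overlapped for each of them and only Egr1 passed (−1.92, SE 0.32), which it did not without KO FO replicate 1, WT FO replicate 2 or WT T2 replicate 1 (−1.77 to −1.68). After adjustment for GC content 2 members passed as lower. The median of the list was −0.34 without WT FO replicate 2 and −1.08 without WT FO replicate 1. Fos, a member of the AP-1 complex, had 36.2, 290, 639 and 138 RPKM in FO and 159, 590, 760 and 510 RPKM in T2 libraries. The order of the libraries was alike in the stages, with WT replicate 1 the highest and KO replicate 1 the lowest in each, and the log2 fold change of Fos was −1.32 (SE 0.75, limma adjusted p = 0.229). Of 22 tested genes of B-cell receptor signaling 2 passed, both as higher, beside 6.85% of all tested genes, and the median was 0.05. They were Blk, a Src-family kinase, and Inpp5d (SHIP-1), a lipid phosphatase. Neither passed after adjustment for GC content (log2 fold changes of 0.12 and 0.12), where the median was −0.05 and 0 members passed. The count was also 0 without any one of KO FO replicate 1, KO FO replicate 2, WT FO replicate 1, WT FO replicate 2, KO T2 replicate 1 and WT T2 replicate 1.

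**Figure D4:**
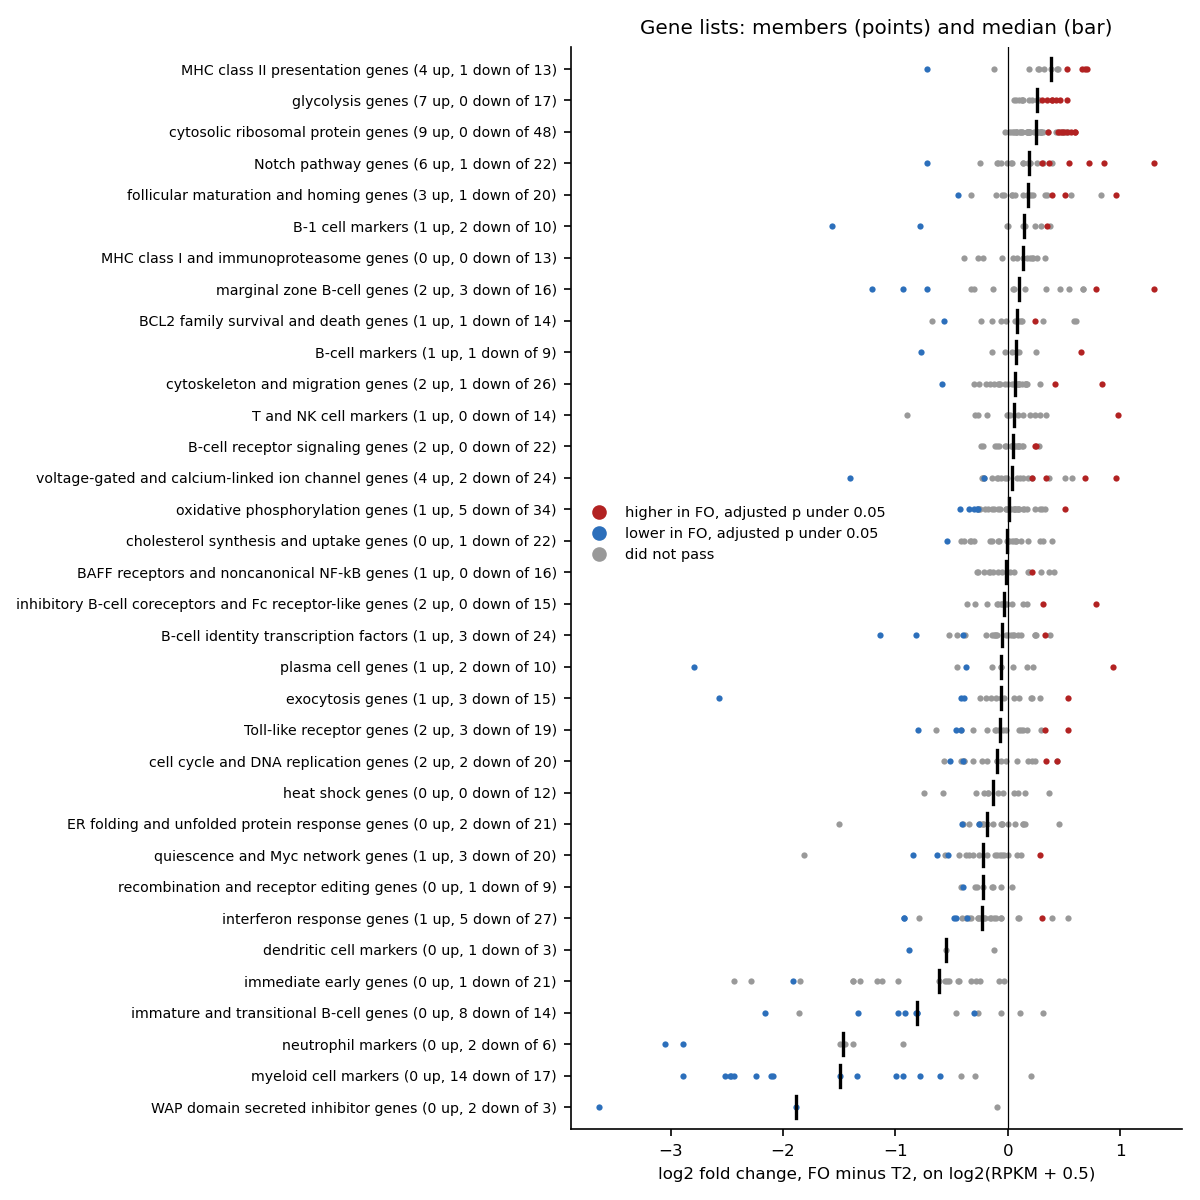
Log2 fold change (FO minus T2) on log2(RPKM + 0.5) of every tested member of each gene list with at least 3 tested members. Sort markers and immunoglobulin segments are not shown. Red points are members that passed as higher, blue points members that passed as lower and gray points the others. The black bar is the list's median, and the numbers in brackets give the members that passed in each direction of those tested. The lists run from a median of 0.39 for MHC class II genes at the top to −1.89 for the 3 WAP domain genes at the bottom.

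Immunoglobulin variable segments, of which each B-cell uses 1 heavy and usually 1 light chain segment, were lower more often than higher in FO libraries. Of 192 tested segments 71 passed as lower and 10 as higher, with a median of −0.37, and 16 were called lower and 4 higher. Of all tested genes 7.44% passed as lower and 6.85% as higher, and 0.977% were called lower and 0.598% higher. Heavy chain segments (29 lower and 3 higher of 95) and kappa segments (39 lower and 7 higher of 93) went the same way. Igkv3-4 stood out with 165, 99.7, 177 and 83.1 RPKM in FO and 19.0, 30.1, 21 and 28.2 RPKM in T2 libraries, a log2 fold change of 2.35 (SE 0.27, limma adjusted p = 0.0099) called in all 8 fits. Both FO replicate 1 libraries were the highest. Igkv3-12, Igkv3-1, Igkv3-7 and Igkv3-10 of the same family also passed as higher. Iglv1, the main lambda segment, had 205, 297, 204 and 295 RPKM in FO and 565, 555, 576 and 552 RPKM in T2 libraries (log2 fold change −1.19, SE 0.14, limma adjusted p = 0.0106). Its replicates agreed across genotypes, with FO replicate 1 at 205 and 204 RPKM and FO replicate 2 at 297 and 295 RPKM. These segments were chosen after their values were seen, and segments of one family share sequence, so reads may be split among them. The number that passed as lower was 9 without KO FO replicate 1, 18 without WT FO replicate 1, 28 without WT T2 replicate 1, 30 without WT FO replicate 2 and 36 without KO T2 replicate 1.

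Short noncoding RNAs made up a large part of the other rises. Of 453 tested genes of small RNA classes (microRNA, snoRNA, snRNA, scaRNA, rRNA, ribozyme and miscellaneous RNA), 20 were called higher and 5 lower, against 37 and 83 of 9679 protein-coding genes. Rpph1, the RNA component of RNase P, had 16.7, 7.59, 13.8 and 8.69 RPKM in FO and 2.09, 1.78, 1.74 and 1.84 RPKM in T2 libraries (log2 fold change 2.30, SE 0.23, limma adjusted p = 0.00972). The sum of 7 such noncoding genes (Gm23935, Mir5105, n-R5-8s1, RP23-81C12.3, RP23-81C12.1, Gm15564 and Rpph1, chosen after their values were seen) was 12185, 5020, 9341 and 5065 RPKM in FO and 2216, 1298, 1096 and 1056 RPKM in T2 libraries. Both FO replicate 1 libraries were the highest, and short genes in a library made from fragmented RNA have few counted positions, so these levels are uncertain.

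The genes that changed were placed in the other subsets of the spleen by their levels in T1 and MZ libraries. T1 was above MZ in every library for 45 of the 83 called protein-coding falls (54.2%) and below it for 4 (4.82%), against 20.5% and 29.7% of all tested genes. Of the 37 called protein-coding rises, T1 was below MZ for 27 (73%) and above it for 2 (5.41%). Means of 4 libraries are given next in the order T1, T2, MZ and FO. Cplx2 averaged 26.5, 5.29, 0.146 and 0.420 RPKM, and Slamf9 averaged 40.3, 9.10, 1.65 and 2.22 RPKM, so that both were highest in T1 and lower in MZ than in FO. Atp1b1 averaged 71.4, 20.3, 0.583 and 7.38 RPKM in the same order. Nedd4 took another course, at 69.3, 35.4, 83.5 and 8.62 RPKM, with FO the only low subset. The named falls of macrophages and neutrophils differed from these, each with its highest mean in T2 and its lowest in FO. S100a8 averaged 7.78, 21.4, 5.89 and 3.53 RPKM, and Vcam1 averaged 1.21, 4.14, 1.23 and 0.36 RPKM. Kcna3 averaged 6.20, 13.2, 24.0 and 26.0 RPKM, higher in T2 than in T1 and higher again in both mature subsets.

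FO was then set against MZ in the same way, with the FO libraries shared between the comparisons. Of 11696 genes tested 1190 were called (10.2%), 449 of them higher (3.84%) and 741 lower (6.34%) in FO. Of the 12 named rises from T2, Shank1, Crip3, Tbx21, Prss12 and Mapk12 were called higher in FO than in MZ. Crip3 averaged 8.67 ± 1.06 RPKM in FO, with 0.346 RPKM in MZ and 0.046 RPKM in T1 (FO minus MZ 3.46, SE 0.19, limma adjusted p = 5.2e-06), and Mapk12 differed by 3.74 (SE 0.25). Dtx1, Il9r and Rhbdf1 were called lower in FO than in MZ, with FO minus MZ of −2.15, −2.56 and −2.29. Dtx1 averaged 50.4 RPKM in FO and 225 RPKM in MZ, with 17.4 RPKM in T1 and 20.7 RPKM in T2. Nid1 passed as lower than in MZ at −0.69, under the fold criterion, and Apoe, Lars2 and Sh2b2 did not pass (0.15, 0.91 and 0.40). For Kcna3 the difference was 0.11 (SE 0.054, limma adjusted p = 0.13). Among the falls, Nedd4 (−3.23, SE 0.15) and Plxnd1, a semaphorin receptor high in MZ cells (−5.00, SE 0.092), were called lower in FO than in MZ. Atp1b1 (2.86, SE 0.17) was called higher. The list of MZ genes had 2 of 16 members passing as higher from T2 to FO, Dtx1 and Fcrl5 (0.78), and 3 as lower, Plxnd1 (−1.21), Cd36 (−0.93) and Hes1, with a median of 0.10. After adjustment for GC content 4 passed as higher and 5 as lower, whereas 0 passed as higher and 1 as lower without KO FO replicate 1, WT FO replicate 1 or WT FO replicate 2.

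**Figure D5:**
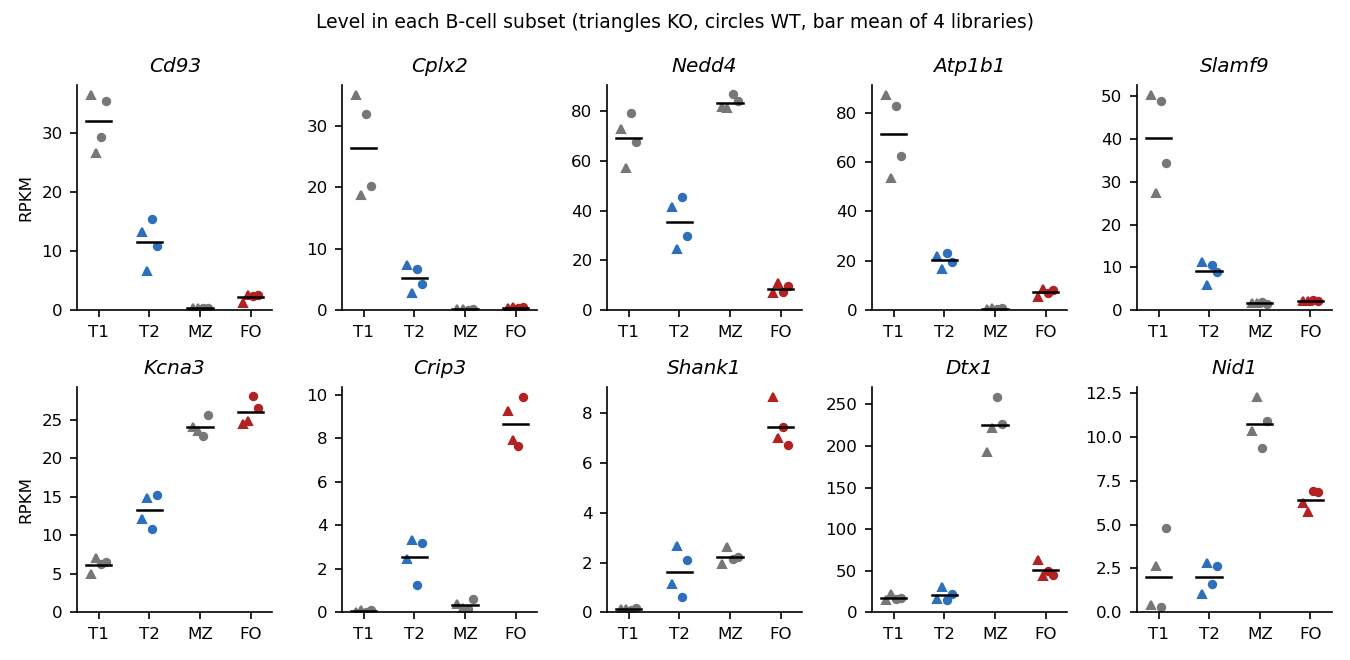
RPKM of 10 genes in each of the 4 libraries of the T1, T2, MZ and FO subsets, with triangles for KO, circles for WT and a bar for the mean. Cd93, Cplx2, Atp1b1 and Slamf9 are highest in T1, Nedd4 is low in FO only, Crip3 and Shank1 are highest in FO, and Dtx1 and Nid1 are highest in MZ.

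The change from T2 to FO was compared between genotypes by the difference of KO (FO minus T2) and WT (FO minus T2). No gene was called among 11365 tested (0%) in limma, with no fold criterion, and 130 had an unadjusted p under 0.05. In limma-voom on recovered reads 0 were called and 65 had an unadjusted p under 0.05. This result does not show that the genotypes act alike. Within 1 genotype alone, 0 genes were called in KO libraries and 0 in WT libraries, with 1353 and 2050 at an unadjusted p under 0.05. The study describes the replicates as biological, while how mice were divided among them is not given in the sources used here. All p-values measure the spread between these libraries.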

How the data were processed

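RNA was sequenced from 16 libraries of sorted splenic B-cells (TruSeq RNA kit, single-end 100 bp). The authors filtered reads, ran TopHat against mm10 (at most 2 mismatches per read), retained unique alignments and deposited RPKM per gene, with replicates kept apart. Versions of these tools: not given in the sources used here. The authors' DESeq and edgeR tests used read counts. The deposited values are RPKM, so limma on RPKM was the main test, with limma-voom on recovered reads as an alternative. Annotation was GENCODE M21. The values of a gene are whole multiples of that of 1 read, so reads were recovered within 0.01 reads for all 23194 genes above 0.

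On the scale of log2(RPKM + 0.5), limma 3.58.1 (R 4.3.3) was fitted to the 4 FO and 4 T2 libraries, with genotype as covariate, for genes with a mean RPKM over 1 in either stage, adjusted by Benjamini-Hochberg. Tables and figures used Python 3.11.15, numpy 2.4.6, pandas 2.3.3 and matplotlib 3.10.9. The named genes are the 12 largest rises and 16 largest falls among called genes without overlap between the stages, leaving out immunoglobulin and T cell receptor segments, sort markers, small RNAs, pseudogenes and genes with predicted or numbered names, with the markers Cd93 and Kcna3 and the 2 highest and 2 lowest members of each gene list, of which the text gives a part. The comparison, the gene lists and the tests were chosen with earlier results of these data known. GC content was adjusted by a lowess curve (span 0.3) per library. Of the 30 named and marker genes, 3 (Csf1r, Kcna3 and Shank1) overlap a gene on the opposite strand, and reads without strand cannot tell them apart. The fit was tested on simulated data. Alternatives were other pseudocounts, filters, scalings, weights, limma-voom on recovered reads, a replicate block, one genotype alone and leaving out each library. Those chosen after seeing the data were GC-adjusted values, at least 10 recovered reads in 4 libraries, and leaving out both T2 replicate 1 libraries.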

Additional observations from a re-analysis of the deposited data

Results flagged for a closer look

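Among 60 groups of 4 libraries examined for the named genes and both markers, 2 held a library whose gap to the nearest other exceeded Dixon's 95% limit for the share of the group's range, which chance gives in about 1 in 20 groups. Cd93 was lowest in KO FO replicate 1, at 1.17 RPKM against 2.42 to 2.55 RPKM in the other FO libraries, a gap of 0.901 of the range. Il9r was highest in WT FO replicate 2, at 41.2 RPKM against 21.1 to 23.7 RPKM in the other FO libraries, a gap of 0.871 of the range.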

How the results depend on the processing

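The 179 genes called between FO and T2 became 87 with no filter on low values, 95 at a mean RPKM over 5, 303 with array weights, 280 in limma-voom on recovered reads and 1623 without the fold criterion. No gene (0) was called in KO libraries alone and 0 in WT libraries alone. Leaving out both T2 replicate 1 libraries, chosen after seeing the data, left 14 calls, and leaving out each library in turn gave 31 to 239. That fit holds only 2 T2 libraries. The other alternatives gave 131 to 237 calls. The genotype difference had 17 calls with no filter on low values, 0 to 1 when leaving out each library in turn (1 without WT T2 replicate 1) and 0 under every other alternative run. The FO against MZ count was 739 at a mean RPKM over 5 and 6054 without the fold criterion, and quantile normalization gave 533 higher and 583 lower, against 449 and 741. The cause of these shifts was not tested. No named gene that was called in the main fit reversed its direction under any alternative run. For the named rises and falls this was fixed in advance in fits that only leave out libraries. They were chosen for having no overlap between the stages, so the lack of reversals there is no finding. Reversals were not counted for named genes that were not called. Replicate numbers do not pair the libraries by any label. The mean of each genotype and stage was subtracted from the log2 values of its libraries. What remained in FO replicate 1 and T2 replicate 1 correlated at 0.21 in KO and 0.07 in WT. With the replicate block the FO against T2 calls were 183 (number within genotype) or 184 (across genotypes), the genotype difference had 0 under both, and FO against MZ had 1221 or 1193. With 2 libraries per genotype and stage, and T2 libraries of at most 14056567 reads, changes in genes near 1 RPKM are the least certain.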

Other observations

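Further lists of genes moved little or in both directions between FO and T2 cells. Their counts stand beside 6.85% of all tested genes that passed as higher and 7.44% as lower. Of 14 tested BCL2 family genes, Bcl2, which protects cells from death, passed as higher (24.4 ± 2.15 RPKM in FO and 20.5 ± 1.38 RPKM in T2, n = 4 each) and Mcl1, a related survival protein, as lower (268 ± 17.8 RPKM in FO and 403 ± 74.5 RPKM in T2). Of 20 tested cell cycle genes, the replication helicase subunits Mcm2 and Mcm5 passed as higher and Aurkb and Pcna as lower, with a median of −0.10. Of 24 transcription factors of B-cell identity, Zfp318 passed as higher (0.34) and Bcl11a, Zeb2 and Id2 as lower. Zfp318, which is needed for the splicing that makes IgD, averaged 75.4 ± 1.21 RPKM in FO and 59.7 ± 2.61 RPKM in T2 libraries. Of 19 Toll-like receptor genes, Irak2 and Ticam1 passed as higher and Tlr7, Cd180 and Ly96 as lower, with a median of −0.07. Of 13 genes of MHC class I and the immunoproteasome, 0 passed, and the median was 0.14. After adjustment for GC content, 3 cell cycle genes passed as higher and 1 as lower (Pcna no longer passed), 2 transcription factors as higher and 3 as lower (Id2 no longer passed), and 1 Toll-like receptor gene as higher and 2 as lower (Irak2 and Tlr7 no longer passed). The B-cell genes Faim3 (0.65) and Ms4a1, the CD20 antigen (−0.77), passed in opposite directions.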
